A study of Mus musculus with 2 samples.

Results

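The epidermal growth factor (EGF) family is described here in mouse urothelial organoids through 10 genes. They were listed by symbol and not by a rule on measured values, but earlier results of these data were known when they were chosen. The genes were the ligands Areg, Ereg, Hbegf, Tgfa, Btc and Epgn, the receptors Egfr, Erbb2 and Erbb3, and Errfi1, an intracellular inhibitor of the receptors. All 10 were among the 31053 genes of the count matrices, and 9 of them had at least 100 unique molecular identifiers (UMIs, 1 per captured RNA molecule) over both libraries; Epgn did not. The organoids were grown from unsorted normal urothelium, the epithelium that lines the bladder, of WT C57BL/6 mice aged 8 to 10 weeks, and 10000 dissociated cells per condition were loaded for 3′ single-cell RNA sequencing. By the study's differentiation protocol, organoids were reseeded after a first week in complete medium and grown for a further week in either medium. Proliferative organoids (NMU-O-P, called P) were kept in complete medium. Differentiated organoids (NMU-O-D, called D) spent the further week in a medium that lacked EGF, Noggin, WNT3A, RSPO1 and the TGF-β receptor inhibitor LY2157299. The loss of EGF was thus 1 of 5 named changes made together, and its effect cannot be told apart from that of the other 4. WNT3A and RSPO1 were supplied as conditioned media, so whatever else these media held was removed with them. Each group held 1 library, so no difference has a replicate check and no p-value was computed.

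Ligands of this family are made as membrane-anchored precursors and are released by proteases such as ADAM17 and ADAM10. Areg, Tgfa, Epgn and Egf bind EGFR, whereas Hbegf, Ereg and Btc also bind ERBB4; the bound receptor pairs with another EGFR or with ERBB2, which has no ligand of its own, or ERBB3, whose kinase is nearly inactive and whose ligands are neuregulins. The RAS-ERK cascade that follows induces immediate early genes, some of the ligands themselves, and inhibitors such as ERRFI1, DUSP6 and the Sprouty proteins. In bladder epithelium, EGFR and its ligands are known for their part in growth and repair after injury.

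Promoters of 7 member genes (8 start sites, from 250 bases before to 50 after each) were present in the RefSeq promoter table of GRCm38.p6; Ereg, Hbegf and Erbb3 were not in it. Areg and one of the Errfi1 start sites each held a full cAMP response element, TGACGTCA, the site that CREB and ATF factors bind. They are shown because both genes are known immediate targets of growth factor signalling. The element, in capitals, begins 61 bases before the start of Areg and 51 bases before that of Errfi1:
Areg, plus strand, chr5:91139349-91139648: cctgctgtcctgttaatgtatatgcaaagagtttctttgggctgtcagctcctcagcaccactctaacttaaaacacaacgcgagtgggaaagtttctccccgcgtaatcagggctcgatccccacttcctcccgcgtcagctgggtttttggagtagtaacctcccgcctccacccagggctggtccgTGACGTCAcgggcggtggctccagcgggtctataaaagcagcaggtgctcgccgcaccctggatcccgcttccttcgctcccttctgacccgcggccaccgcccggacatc
Errfi1, plus strand, chr4:150854820-150855119: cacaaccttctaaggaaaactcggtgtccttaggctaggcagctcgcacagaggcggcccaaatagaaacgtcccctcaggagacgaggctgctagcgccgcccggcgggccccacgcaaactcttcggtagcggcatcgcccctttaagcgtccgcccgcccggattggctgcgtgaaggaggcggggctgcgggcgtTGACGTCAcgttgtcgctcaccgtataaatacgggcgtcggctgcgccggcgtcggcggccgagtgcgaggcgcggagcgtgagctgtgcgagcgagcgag
On either strand, the element was in 1.79% of the 32851 promoters in the table. The AP-1 site TGANTCA was in 7.81% of all promoters and in 0 of the 8 member promoters, and the ETS site CCGGAAG in 8.86% of all and in 1 of the 8, that of Egfr. These are matches of letters, not measured binding sites.

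Of the ligand genes, 4 lie side by side on chromosome 5 of GRCm38, in the order Epgn (91027464 to 91035215), Ereg (91074622 to 91093646), Areg (91139599 to 91148432) and Btc (91357261 to 91402994, minus strand), within 375531 bases. Hbegf is on chromosome 18 (36504927 to 36515805) and Tgfa on chromosome 6 (86195223 to 86275719). Egfr (16752203 to 16918158) and Erbb2 (98412470 to 98437716) are on chromosome 11, Erbb3 on chromosome 10 (128567523 to 128589652) and Errfi1 on chromosome 4 (150853919 to 150868892).

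After cells with over 800 genes and at most 12% mitochondrial UMIs were kept, P held 6818 cells with 26681469 UMIs (83.2% of its barcodes) and D 4896 cells with 20305621 UMIs (70.2%), at medians of 3405.5 and 3227.5 UMIs per cell. Of the barcodes, 10 occurred in both deposited libraries and 6 among the kept cells of both. Levels are UMIs per 1000000 UMIs of a library or cluster (CPM), with exact 95% Poisson intervals; ratios are log2 of D over P, with exact conditional binomial 95% intervals. These intervals cover counting error only. In P, 37.4% of UMIs came from ribosomal protein genes, and in D 21.4%, and the median gene stood 0.42 higher in D on the log2 scale, so that member ratios are read against this shift. Summed markers of the bladder epithelium were found in both libraries. Basal markers such as Krt5, Krt14 and Krt15 stood at 7804 CPM in P and 15424 in D. Within this list, Krt15 went from 2025 to 7344 CPM (1.86) and Krt14 from 1783 to 3736 (1.07). Krt5 (0.16), Itgb4 (0.20) and Cd44 (0.11) were below the shift, and Itga6 (-0.20) and Trp63 (-0.94) were lower in D. Intermediate markers such as Krt8 and Krt18 stood at 7494 and 11830 CPM, and uroplakin genes at 20.5 and 1245. The markers of fibroblasts summed to 1.99 and 62.5 CPM, those of leukocytes to 0.937 and 20.2 (in D 400 of 410 UMIs were Laptm5, with Ptprc at 2 and Cd52, Tyrobp and Cd3e at 0), and the 4 globin genes were at 0 in both.

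The family was expressed in both conditions, and none of its members changed by the rule used for all genes, a level at least 2-fold higher in 1 library with at least 100 UMIs over both. That rule was met by 0 of the 9 members with enough UMIs in either direction, against 13.5% of 10719 genes higher in D and 4.73% higher in P. With mitochondrial and ribosomal protein genes left out of the library totals it was again 0 of 9, against 6.5% higher in D and 7.67% higher in P (14.2% in either direction), and with the shift removed 0 of 9 against 5.64% and 8.65% (14.3%); on the first scale 18.2% of genes met the rule in either direction. The ratios of the 9 ran from 0.16 to 0.88, with a median of 0.62 beside 0.41 for all genes tested, and 8 of the 9 lay above the library-wide shift, as did 49.0% of all genes tested.

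Hbegf, the heparin-binding ligand of the family, and Areg (amphiregulin) made up most of the ligand RNA. Hbegf had 2205 UMIs in P and 3080 in D, or 82.6 CPM (79.2 to 86.2) and 152 CPM (146 to 157). Its log2 ratio of 0.88 (0.80 to 0.96) was the highest of the members and exceeded the shift by 0.45. Areg had 2347 and 2446 UMIs, or 88.0 CPM (84.4 to 91.6) in P and 120 CPM (116 to 125) in D, a ratio of 0.45 (0.37 to 0.54) that was 0.03 once the shift was removed. The intervals of Areg and Hbegf overlapped in P, where they took 44.7% and 41.95% of the UMIs of the 6 ligands, whereas in D Hbegf took 48.6% and Areg 38.6%.

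The other ligands were scarcer. Ereg (epiregulin) stood at 12.7 CPM (11.4 to 14.1) in P and 19.4 CPM (17.5 to 21.4) in D, a ratio of 0.62. Tgfa (transforming growth factor alpha) stood at 9.63 CPM (8.49 to 10.9) and 13.8 CPM (12.2 to 15.5), a ratio of 0.52. Btc (betacellulin) had 99 and 128 UMIs, or 3.71 and 6.30 CPM, with a ratio of 0.76 (0.37 to 1.16). For each of these 3 genes the interval of the ratio included 0 after the shift was removed. Epgn (epigen) had 10 UMIs in each library, 0.375 and 0.492 CPM, too few for a comparison. Summed over the 6 ligands, the level was 197 CPM in P and 312 CPM in D, a ratio of 0.66 (0.61 to 0.72) that became 0.24 once the shift was removed.

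The receptors were close to each other in level. In P, Egfr was at 31.7 CPM (29.6 to 33.9), Erbb3 at 28.7 CPM (26.7 to 30.8) and Erbb2 at 23.3 CPM (21.5 to 25.2), so that Egfr and Erbb3 overlapped and Erbb2 was below both. In D, Erbb3 was at 39.7 CPM (37.0 to 42.6), Erbb2 at 36.4 CPM (33.8 to 39.1) and Egfr at 35.4 CPM (32.8 to 38.0), and all 3 intervals overlapped. Egfr had the lowest ratio of the members, 0.16 (0.01 to 0.30), which turned to -0.26 when the shift was removed and to -0.18 when mitochondrial and ribosomal protein genes were left out of the library totals. The ratios of Erbb2 and Erbb3 were 0.64 (0.49 to 0.80) and 0.47 (0.32 to 0.61), and stayed above 0 under both scalings, although once the shift was removed the interval of Erbb3 included 0 (-0.10 to 0.19). The 3 receptors summed to 83.7 CPM in P and 111 CPM in D, a ratio of 0.41 that was -0.01 once the shift was removed. Errfi1, which binds the kinase domain of active EGFR and blocks it, was at 22.9 CPM (21.1 to 24.8) in P and 36.6 CPM (34.0 to 39.3) in D, a ratio of 0.68 (0.52 to 0.83).

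**Figure D1:**
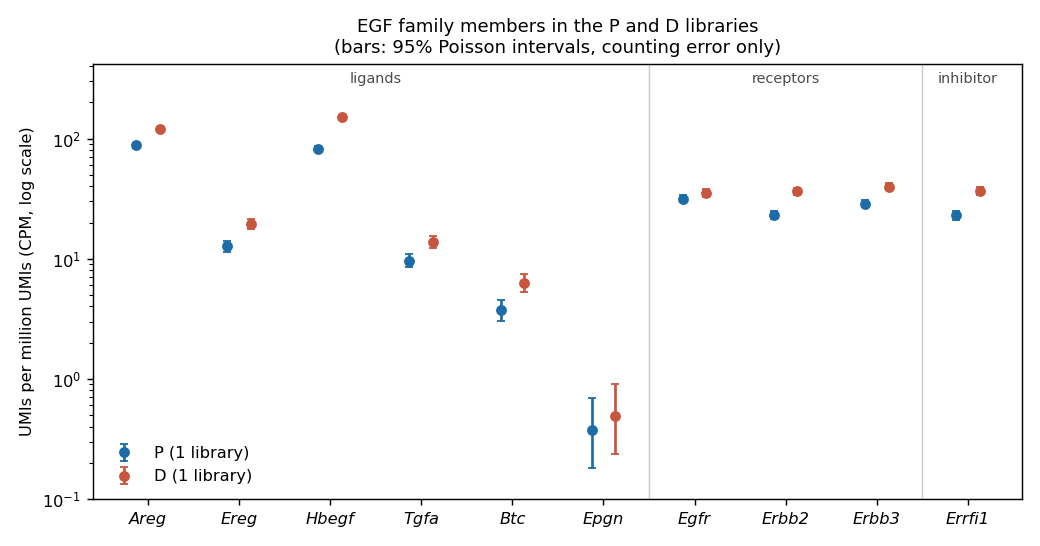
Level of each of the 10 members in P and D, in CPM on a log axis, with 95% Poisson intervals and 1 library per group. Areg and Hbegf lie between 82.6 and 152 CPM, the receptors and Errfi1 between 22.9 and 39.7 CPM, and Epgn below 1 CPM in both libraries.

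Shares of cells with a UMI were also counted, after each cell was thinned to 2000 UMIs, which left out 102 cells of P and 359 of D. At this depth and these levels a share rises with the mean level. Like a sum over a library, it therefore does not separate more cells with an RNA from more RNA per cell. At least 1 ligand UMI was found in 25.6% (24.6 to 26.7, exact binomial interval) of P cells and 38.4% (37.0 to 39.8) of D cells, against 39.2% and 52.7% of cells before thinning. Hbegf was found in 12.1% of P cells and 22.5% of D cells, and Areg in 12.2% and 15.9%. Before thinning these shares were 21.4% and 35.3% for Hbegf and 20.9% and 24.2% for Areg. A receptor UMI was found in 15.1% (14.3 to 16.0) and 19.9% (18.7 to 21.1) of thinned cells, and UMIs of at least 2 different ligands in 3.60% and 6.81%. Ligand and receptor UMIs together were found in 3.95% of P cells and 7.69% of D cells, and Egfr with a ligand in 1.49% and 2.16%. These joint shares rise with the single shares of ligands and receptors, which were higher in D. Whether ligand and receptor RNA occurred together more often than their single shares give was not tested. No cell type in the organoids is known to lack all of these genes, so the lowest share among clusters is given below beside the highest.

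The cells of each library were clustered without the members and the pathway genes among the features, which gave 4 clusters per library. In P, P0 (2641 cells, led by Sprr3, Cnfn and Rptn) had all 10 intermediate markers and 10 of 11 detected squamous markers above their library level. P1 (2600 cells, led by Ctla2a, Nbl1 and Sparc) had summed intermediate and uroplakin markers below it. P2 (1221 cells) was led by Fmo2, Mmp7 and Agr2, and P3 (356 cells) had all 12 proliferation markers above their library level. In D, D0 (2207 cells) was led by Reg1, Ces1d and Agr2. D1 (1282 cells, led by Acta2, Cav1 and Ms4a10) had 5 of 7 basal markers and all 10 detected proliferation markers raised. Of the 5 smooth muscle markers, the 2 counted as detected, Acta2 and Tagln, were raised in D1. In D, Acta2 held 837 of that list's 875 UMIs, Cnn1 held 3, and Myh11 and Des held 0. D2 (723 cells, led by Krt1 and Slc16a14) had 6 of 7 basal markers raised. D3 (684 cells, led by Ankrd1, Ubd and Ifit1bl1) had all 5 uroplakin genes raised. Clusters are called by number. By a rule on marker levels, the basal end was P3 in P and D1 in D, and the uroplakin end P0 and D3. In P this name stands for the rule alone: uroplakin genes summed to 37.3 CPM in P0 beside 2952 CPM of squamous markers, against 4232 CPM of uroplakin genes in D3, and P0 was led by Sprr3 and Cnfn, genes of squamous epithelium, so that P0 and D3 were not alike in these markers.

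Areg, Ereg and Btc were highest and Egfr lowest in the same cluster of each library, P0 and D3, and the reverse held in P1 and D1. Areg was at 133 CPM in P0 and 37.9 CPM in P1, with P2 and P3 between them at 51.4 and 66.9 CPM. In D it reached 323 CPM in D3 and 117 CPM in D0, but only 33.3 CPM in D2 and 11.1 CPM in D1. Its share of thinned cells ran from 6.05% in P1 to 19.8% in P0, and from 1.59% in D1 to 41.4% in D3. Ereg followed the same order in D, at 45.9, 19.2, 9.51 and 3.71 CPM in D3, D0, D2 and D1, and was likewise highest in P0, at 16.9 CPM. Btc had 38 UMIs in D3 and 1 in D1, or 11.3 and 0.247 CPM, and 80 in P0 against 2 in P1.

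Hbegf did not share the D pattern of its relatives. In P it was highest in P0, at 125 CPM, and between 37.2 and 54.3 CPM in the other clusters. In D it was highest in D2 (196 CPM) and D0 (186 CPM), whose intervals overlapped, then 112 CPM in D3 and 68.6 CPM in D1. Its lowest shares of thinned cells were 5.97% in P1 and 12.1% in D1. Tgfa varied less between clusters than these ligands, from 7.43 to 10.6 CPM over the clusters of P and from 8.41 CPM in D1 to 21.7 CPM in D3.

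Egfr was highest where Areg was lowest. It stood at 45.9 CPM in P1 against 22.3 CPM in P0, and at 63.6 CPM in D1 against 20.5 CPM in D3. Its share of thinned cells was 8.62% in P1, 4.61% in P0, 13.2% in D1 and 3.72% in D3. Of the 20 Epgn UMIs, 6 were in P1, 3 in P3 and 7 in D1, and none in D3. Erbb3 ran the other way, at 16.3 CPM in P1 and 35.9 CPM in P0, and at 17.1 CPM in D1 and 58.1 CPM in D3. Erbb2 was lowest in P1 (11.5 CPM) and D1 (24.3 CPM) and highest in P0 (32.9 CPM) and D0 (42.4 CPM). Errfi1 was the most even in D, between 32.7 and 42.8 CPM with overlapping intervals, and ran from 11.2 CPM in P3 to 25.7 CPM in P0.

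**Figure D2:**
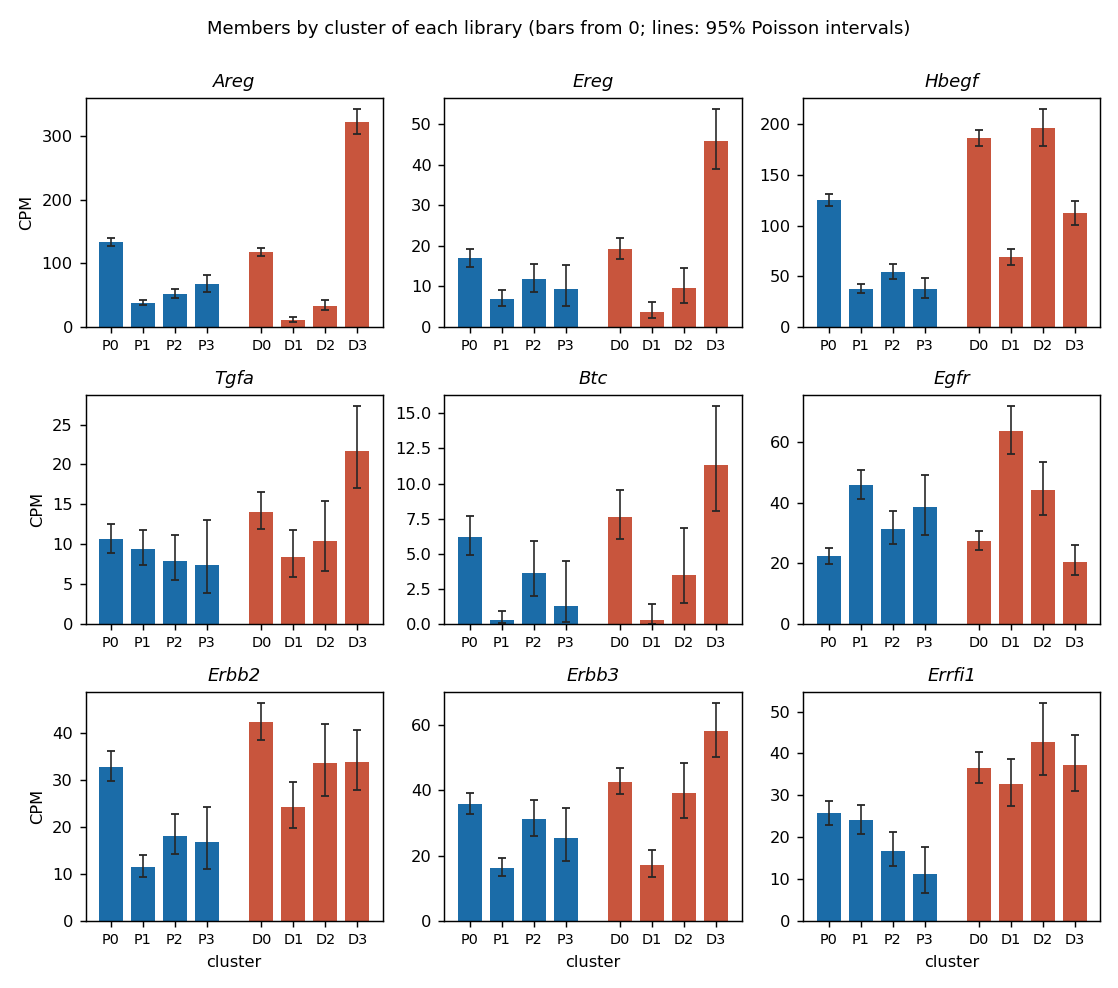
CPM of 9 members (Epgn left out) in the 4 clusters of P (blue) and of D (red), with bars from 0 and 95% Poisson intervals. Areg is highest in D3, at 323 CPM, where Egfr is at 20.5 CPM, and Egfr is highest in D1, at 63.6 CPM.

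Between the ends, members were counted where both end clusters held at least 100 UMIs of the gene together, which left 8 in each library. In D, 4 of 8 were at least 2-fold higher in D3, against 7.49% of 6920 genes, and 1 of 8 in D1, against 8.82%. The log2 ratios of D1 over D3 were -4.86 (-5.32 to -4.43) for Areg, -3.63 for Ereg, -1.77 for Erbb3, -1.37 for Tgfa and 1.63 (1.24 to 2.04) for Egfr. Areg was thus 29.0-fold higher in D3 than in D1. In P, 2 of 8 were at least 2-fold higher in P0 than in P3, against 8.17% of 7879 genes, namely Hbegf at -1.75 and Errfi1 at -1.20, and 0 of 8 in P3, against 11.8%; Areg stood at -0.99 and Egfr at 0.79. P3 was the cycling cluster of P. With P1 taken in its place, a choice made after the values were seen, 5 of 8 were higher in P0 (background 7.88%) and Egfr, at 1.04, in P1 (background 8.37%), while Areg moved to -1.81, Erbb2 to -1.52 and Errfi1 to -0.10. With clusters at resolution 0.4, the ends of P gave -1.82 for Areg, -1.10 for Ereg, -1.53 for Erbb2 and -1.48 for Erbb3. Hbegf was then at -2.09, Errfi1 at -0.44 and Egfr at 1.03. In D, Hbegf moved from -0.71 to -1.23 at that resolution, with Areg at -4.24 and Egfr at 1.38.

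Cells grouped by single states gave related values. In P, the 421 cells with at least 2 of 12 proliferation genes had Hbegf at 41.1 CPM against 86.0 CPM in the other cells, and Errfi1 at 12.2 against 23.8 CPM. Egfr differed less, at 38.5 and 31.1 CPM, and the ratio's interval included 0. In D, the 2849 cells with a UMI of a uroplakin gene had Areg at 158 CPM against 34.4 CPM in the rest, and Egfr at 28.7 against 50.5 CPM. In P, 303 cells had such a UMI, with Areg at 176 against 82.1 CPM. Egfr did not differ in the same way there, at 29.9 against 31.8 CPM, with a ratio of -0.09 (-0.53 to 0.32). Cells in these states were deeper than the others, with medians of 4062 against 3373 UMIs for cycling cells of P, 3714 against 2696 for uroplakin cells of D and 4376 against 3378 for those of P. The part of depth in these values was not tested.

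Because the mixture of cells differed between the libraries, the ratios were also taken within clusters of both libraries together, built without genes that differed 2-fold and without the pathway genes. Joint cluster 0 held 3569 P and 2907 D cells, joint cluster 1, on the side of low intermediate and uroplakin markers, 2534 and 1293, and joint cluster 2, with the most intermediate marker RNA, 378 and 669. A cycling joint cluster with 337 P and 27 D cells was not compared. Uroplakin RNA still differed within them, at 14.9 CPM in P and 982 CPM in D in joint cluster 0, 4.42 and 68.3 CPM in joint cluster 1, and 160 and 4035 CPM in joint cluster 2. Squamous markers stood at 2167 CPM in P and 642 CPM in D in joint cluster 0 and at 3924 and 778 CPM in joint cluster 2, and basal markers at 3384 and 9017 CPM in joint cluster 2. The paired parts of a joint cluster thus differed in markers of cell state, and the part of these differences in the ratios was not tested.

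The nearly level ratio of Areg over the whole libraries was made of unlike parts. In joint cluster 1, Areg was at 38.8 CPM in P and 10.5 CPM in D, a log2 ratio of -1.89 (-2.39 to -1.42), or 3.71-fold higher in P. In joint cluster 0 it was at 95.7 and 109 CPM (0.18), and in joint cluster 2 at 264 and 326 CPM (0.30), both below or near the median gene of those clusters (0.45 and 0.28). Ereg showed the same signs, at 7.53 and 3.99 CPM in joint cluster 1 (-0.92, -1.81 to -0.10) and 13.1 and 18.3 CPM in joint cluster 0 (0.49). With the median gene of each cluster removed, Areg was at -2.37 in joint cluster 1, -0.27 (-0.37 to -0.16) in joint cluster 0 and 0.02 (-0.14 to 0.19) in joint cluster 2, and Ereg at -1.40 and 0.04 (-0.24 to 0.31) in joint clusters 1 and 0, so that no interval stayed above 0.

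Hbegf and Errfi1 differed elsewhere. Hbegf was higher in D in joint cluster 0 (90.8 and 186 CPM, 1.03) and in joint cluster 1 (36.5 and 70.4 CPM, 0.95), but lower in joint cluster 2, at 265 CPM in P and 115 CPM in D, a ratio of -1.21 (-1.416 to -1.001). By CPM, Errfi1 was likewise higher in D in joint cluster 0 (18.2 and 36.7 CPM, 1.01) and joint cluster 1 (23.6 and 34.4 CPM, 0.54). It was lower in D in joint cluster 2 (74.8 and 40.2 CPM, -0.90). With the median gene of each cluster removed, Errfi1 was at 0.57 (0.35 to 0.78) in joint cluster 0 and -1.18 (-1.55 to -0.80) in joint cluster 2. In joint cluster 1 it was then at 0.06 (-0.27 to 0.39), near the median gene. Egfr had ratios of 0.29, 0.47 and -0.51 in joint clusters 0, 1 and 2, and Erbb2 ratios of 0.55, 1.12 and -0.34. With the median gene of each cluster removed, Egfr was at -0.16 (-0.37 to 0.05), -0.01 (-0.25 to 0.23) and -0.79 (-1.29 to -0.27). Erbb2 was then at 0.10 (-0.08 to 0.29), 0.64 (0.20 to 1.08) and -0.62 (-1.06 to -0.17). With the 100-UMI minimum, 2 of 9 members were at least 2-fold higher in D in joint cluster 0 (background 14.1%), 1 of 7 in joint cluster 1 (16.4%) and 0 of 8 in joint cluster 2 (19.4%). At least 2-fold higher in P were 0 of 9 (background 3.22%), 1 of 7 (3.62%) and 1 of 8 (4.54%).

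**Figure D3:**
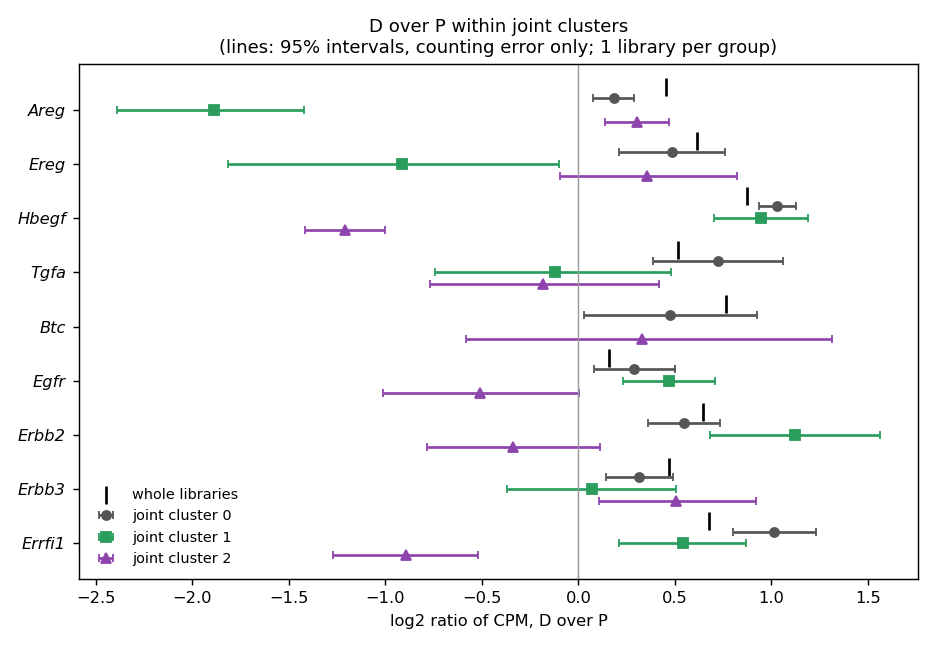
Log2 ratio of D over P for 9 members within 3 joint clusters, with 95% intervals of counting error, and over the whole libraries (black ticks); a point is drawn where the cluster held at least 20 UMIs of the gene. Areg lies at -1.89 in joint cluster 1 and above 0 in the others, and Hbegf at -1.21 in joint cluster 2 and above 0 in the others.

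The rest of the pathway was read from lists of genes, with the same 2-fold rule. The other EGF family genes were sparse except for the neuregulins Nrg1 and Nrg2, ligands of ERBB3 and ERBB4, and both were lower in D. Nrg1 had 269 UMIs in P and 68 in D, or 10.1 and 3.35 CPM (-1.59, -1.996 to -1.201). Nrg2 had 116 and 10 UMIs, or 4.35 and 0.492 CPM (-3.14, -4.24 to -2.21). Within joint cluster 1 the ratios were -1.10 for Nrg1 and -3.74 for Nrg2. Egf itself had 30 and 15 UMIs, and Erbb4, Nrg3 and Nrg4 had at most 3 in either library.

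The lists for ligand shedding and for the RAS-ERK core had medians near that of all genes, with members on both sides of it. Of the 8 shedding genes with enough UMIs, 1 was higher in D and 0 in P, with a median of 0.47 and a share called near the background of 13.5% and 4.73%. The 2 with the most UMIs were Adam10, at 51.2 and 98.4 CPM (0.94), and Adam17, the main sheddase of Areg and Hbegf, at 19.8 and 24.97 CPM (0.33). The gene that was called was Timp3, a secreted inhibitor of ADAM17 and of matrix metalloproteinases, with 4 UMIs in P and 902 in D (0.15 and 44.4 CPM, ratio 8.21, 6.85 to 10.09). Of its 902 UMIs, 730 were in D1 (181 CPM). The fibroblast list was also highest there, at 232 CPM; in D it was almost all Dcn, with 1234 of its 1270 UMIs, while Col1a2 had 0 and Col1a1 10. The part of such cells in the Timp3 level was not tested. Of 15 core genes, from adaptors to ERK, 1 was higher in D, the exchange factor Sos1 (11.5 and 24.2 CPM, 1.08), and 0 in P, below the background in both directions, with a median of 0.49 and ratios from -0.60 to 1.08; once the shift was removed Sos1 was no longer 2-fold higher and Map2k1, which encodes MEK1 (31.9 and 21.1 CPM, -0.60 before the shift was removed), was 2-fold lower in D; it is named after its values were seen. Hras (133 and 239 CPM, 0.85) and Map2k2 (92.8 and 150 CPM, 0.69) had the most UMIs.

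Genes that ERK signalling induces, most of which encode its inhibitors or transcription factors, were the lowest list after the neuregulins. Of 13 with enough UMIs, 5 were at least 2-fold lower in D and 1 higher (4.73% and 13.5% of all genes), with a median of -0.87, or -1.30 once the shift was removed. With the shift removed 8 were lower, against 8.65% of all genes. Ccnd1 (cyclin D1) was at 131 CPM in P and 22.8 CPM in D (-2.53), Myc at 30.02 and 11.0 CPM (-1.44), Dusp6, the ERK-specific phosphatase, at 19.7 and 6.65 CPM (-1.57), Spry1 at 4.57 and 1.77 CPM (-1.37) and Spred3 at 4.91 and 1.03 CPM (-2.25). The ETS factor genes Etv4 and Etv5, below the minimum and named after their values were seen, counted 53 and 28 UMIs among P cells against 1 and 2 among D cells. Egr1 was the gene higher in D, at 85.6 and 267 CPM (1.64), and Phlda1, with the most UMIs of the list, was at 191 and 353 CPM (0.89). Ccnd1 and Myc can also respond to WNT, which was removed with EGF, and the inputs cannot be told apart.

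Within the joint clusters Dusp6 had ratios of -1.45, -1.002 and -3.11 and Ccnd1 of -2.79, -2.01 and -1.70 in joint clusters 0, 1 and 2. Myc was at -1.62, -0.81 and -1.64 and Spred3 at -2.18, -2.06 and -2.59 in the same order. Spry1 was at -1.10 and -2.08 in joint clusters 0 and 1. In joint cluster 2 it was at 2.15, from 1 UMI in P and 8 in D. Among 12 genes of receptor down-modulation, 1 was lower in D, Lrig1, which encodes a membrane protein that promotes the turnover of ERBB receptors, at 10.0 and 2.56 CPM (-1.97), and 0 were higher, beside 4.73% and 13.5% of all genes. With the shift removed 3 were at least 2-fold lower in D and 0 higher, against 8.65% and 5.64% of all genes. The most abundant of that list were Cblc, a ubiquitin ligase gene (50.5 and 33.7 CPM, -0.58), and Usp8, a deubiquitinase gene (24.8 and 35.8 CPM, 0.53), and its median of 0.39 was close to that of all genes.

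Immediate early genes, which respond to growth factors but also to enzymatic dissociation, ran against the ERK-induced list, with which they share Egr1 and Ier3. By the 2-fold rule 7 of 15 were higher in D and 1 was higher in P (13.5% and 4.73% of all genes), with a median of 0.98. With the shift removed 5 were higher, against 5.64% of all genes. Fos was at 203 and 556 CPM (1.45), Atf3 at 15.6 and 75.0 CPM (2.26), Dusp1 at 64.7 and 238 CPM (1.88), Btg2 at 110 and 337 CPM (1.61), Zfp36 at 41.5 and 107 CPM (1.37) and Ier2 at 125 and 296 CPM (1.24), beside Egr1 above. Jun (323 and 586 CPM, 0.86) and Junb (301 and 499 CPM, 0.73) had the most UMIs of the list. Socs3, an inhibitor of cytokine receptors, was lower in D, at 9.71 and 4.04 CPM (-1.27). The rise was uneven over the joint clusters. The list summed to 1936 CPM in P and 4054 CPM in D in joint cluster 0, and to 1422 and 3058 CPM in joint cluster 1. In joint cluster 2, with the most uroplakin RNA, it summed to only 1816 and 2358 CPM. Hbegf was higher in cells that held a UMI of Fos, Jun, Junb, Egr1, Atf3 or Ier2 than in cells that held none, at 86.9 against 40.0 CPM in P and 154 against 50.6 CPM in D, and these cells were also deeper, with medians of 3495 against 2936 and 3261 against 2702 UMIs. In cells with none of the 6, the D over P ratio of Hbegf was 0.34 in place of 0.88 and that of Areg 0.90 in place of 0.45. These ratios came from 97 and 27 UMIs of Hbegf and 151 and 62 of Areg in P and D. They rest on 789 cells of P and 187 of D and are given without an interval, so the moves are not set apart from counting error. The part of dissociation in these values was not tested.

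**Figure D4:**
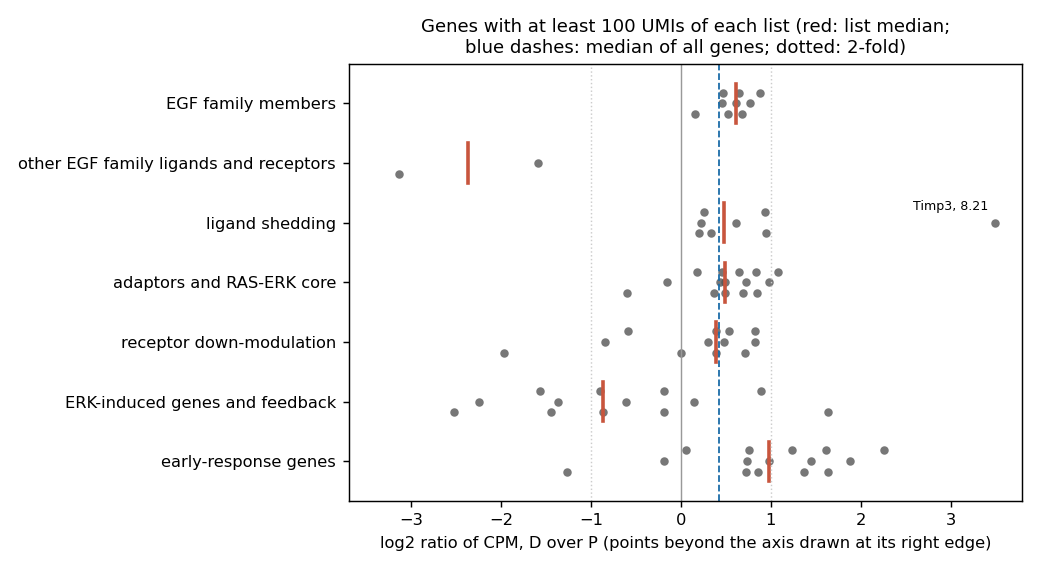
Log2 ratio of D over P of each gene with at least 100 UMIs in the 10 members and in 6 pathway lists, with list medians in red, the median of all genes as blue dashes and 2-fold as dotted lines. The members lie between 0.16 and 0.88, most ERK-induced genes lie left of 0 and most immediate early genes right of the dashes.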

How the data were processed

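The 2 libraries of 10x Genomics 3′ (v3) single-cell RNA sequencing were 1 per group. Per the submitters' processing notes, reads were handled with bcl2fastq 2.19.0 and Cell Ranger 3.0.2 on GRCm38 (mm10); the deposited matrices hold raw UMI counts, with no normalization by the authors. The study's cell filter was used, over 800 genes and at most 12% mitochondrial UMIs (6818 cells in P and 4896 in D; at least 800 genes would have kept 6826 and 4896). Counts were summed per library or cluster and divided by all UMIs per 1000000. Cells were clustered with Seurat 5.3.0 (R 4.3.3) on 2000 variable features less the members and list genes, with 25 components in P and 21 in D at resolution 0.2, and jointly by canonical correlation anchors (25 dimensions, resolution 0.17). Intervals came from scipy 1.17.1, with ratio code tested on simulated data. Scrublet (scanpy 1.11.5) marked 0 cells with its own threshold, so doublets were kept. Promoter sequences came from RefSeq. Named were the members, list genes at least 2-fold different and the 2 genes with most UMIs of each list. The members and lists were chosen with earlier results of these data known. Scaling, cell filters, depth, doublets, cell states, clustering and thresholds were varied.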

Additional observations from a re-analysis of the deposited data

Results flagged for a closer look

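Some members differed between P and D in opposite directions in different joint clusters, with intervals of counting error on both sides of 0. The log2 ratio of Areg was -1.89 in joint cluster 1 and 0.18 and 0.30 in joint clusters 0 and 2, and that of Ereg was -0.92 in joint cluster 1 and 0.49 in joint cluster 0. Hbegf had ratios of 1.03 and 0.95 in joint clusters 0 and 1 and -1.21 in joint cluster 2, and Errfi1 ratios of 1.01, 0.54 and -0.90. With the median gene of each cluster removed, no interval of Areg or Ereg stayed above 0 (Areg -0.27 and 0.02 in joint clusters 0 and 2, Ereg 0.04 in joint cluster 0), while Hbegf kept 0.58 and 0.46 beside -1.49. Errfi1 was then at 0.57 in joint cluster 0, 0.06 (-0.27 to 0.39) in joint cluster 1 and -1.18 in joint cluster 2. These differences between clusters were not tested, since each group held 1 library.

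Barcodes left out by the cell filter, which enter no comparison, also held ligand RNA. Per 1000000 UMIs that were not mitochondrial, the sum of the 6 ligands was 176 over the 1376 such barcodes of P and 398 over the 2079 of D, beside 209 and 336 in the kept cells. The 3 receptors summed to 121 and 272 in the left-out barcodes, beside 88.9 and 120 in the kept cells.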

How the results depend on the processing

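With 1 library per group, no replicate could be left out, and no paired analysis was possible because each group held a single library. Scaling without mitochondrial and ribosomal protein genes gave 697 genes higher in D and 822 in P, in place of 1442 and 507, and log2 ratios of 0.33 for the summed ligands and 0.079 for the receptors; scaling by the median ratio gave 605, 927, 0.24 and -0.0073. The ligand ratio was 0.56 with the stricter cell filter (over 1000 genes, at most 10% mitochondrial), 0.75 with cells thinned to 2000 UMIs, where 1 member (Hbegf) was called higher in D, and -0.050 without cells that held a uroplakin UMI, where 2 members (Areg at -1.25, Btc at -1.02) turned and were called higher in P; that setting takes out 58.2% of D cells and 4.44% of P cells and so compares unlike cells. The receptor ratio was 0.53 over all deposited barcodes. In cells without an early-response UMI it was 0.25, with 389 genes higher in D and 163 in P. That setting keeps 789 cells of P and 187 of D, so its gene counts cannot be set against those of all kept cells. A minimum of 20 UMIs gave 889 genes higher in P, and of 1 UMI 4547 in D and 3368 in P. At 1.5-fold, 5 members and 3879 genes were higher in D and 921 genes in P. At 3-fold the genes were 482 and 290. Clustering at resolution 0.4 moved the ratio of the basal over the uroplakin end in P from -0.99 to -1.82 for Areg. That of Errfi1 moved from -1.20 to -0.44, and that of Hbegf in D from -0.71 to -1.23. The causes of these moves were not tested, apart from fewer or more genes meeting a changed threshold. Egfr's ratio was below 0 under both other scalings and Areg's, Ereg's and Btc's without uroplakin cells. Btc's reached 3.77 in cells without an early-response UMI, where P held 1 of its UMIs. No median could be given there for the neuregulin, ERK-induced and early-response lists, some of whose genes were at 0. For Fos, Jun, Junb, Egr1, Atf3 and Ier2 this 0 was set by the choice of cells. Settings without the doublets that Scrublet calls were not run, since it called none; leaving out the 5% of cells with the highest score was added after the data were seen. Counts limit Epgn and, within clusters, Btc, Ereg and Tgfa.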
